A study of Mus musculus with 12 samples.

Results

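This account follows 38 genes of DNA replication and the G1/S transition through 12 arrays of primary mouse microglia, which are brain macrophages. The members are genes that license origins, activate the helicase, copy DNA, supply nucleotides, drive the G1/S step and rebuild chromatin. Each was read from the brightest probe set that carried only its symbol, by the mean over all arrays. All 38 were found among 19938 genes with a symbol, and 36 of them were among the 15273 genes bright enough to be tested. Orc1 and Ccne2 lay below that limit, a mean of 5.36 log2 (the 30th percentile of all probe sets), and are described by their values alone.

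RNA was hybridised to Affymetrix Mouse Gene 1.0 ST arrays, with 4 groups of 3 arrays. Wild-type microglia were held for 24 h under control conditions (CN, labelled normoxic or normoglycemic) or under ischemia (CH, labelled hypoxic or hypoglycemic), and microglia labelled as Tlr4 knockout were treated likewise (TN and TH). Tlr4 encodes a receptor for bacterial lipopolysaccharide and for molecules released by damaged cells. All cells, the controls included, then spent 24 h under normal conditions (reperfusion), so every value is from after that period. The study's title places the comparison in ischemic brain injury. The labels give neither the age nor the strain of the mice nor the allele, and nothing in them says that replicate arrays hold RNA of different animals or cultures. All p-values therefore rest on the spread among the arrays, which may be technical.

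The labels conflict in places, and the titles were followed. The source name of the CH arrays reads as control conditions, and the extraction protocol speaks of myocytes. Tlr4 itself measured 8.74 ± 0.18 log2 in the wild-type arrays (SD, n = 6, range 8.54 to 9.02) and 8.71 ± 0.22 in the knockout-labelled arrays (SD, n = 6, range 8.39 to 8.97). The ranges overlapped, and a two-sided exact permutation test gave p = 0.851. The signal of the only Tlr4 probe set thus did not separate the genotypes. The labels do not say which part of the gene is deleted, and a probe set outside that part would check nothing, so the second genotype is called knockout-labelled throughout. All 7 measured microglia markers were above the limit for testing, and their mean ran from 9.20 to 10.02 log2 over the arrays. Of 8 myocyte markers 7 were above it, with means of 5.85 to 6.12 log2, and the muscle intermediate filament gene Des was below it. Of the oligodendrocyte-lineage markers 7 of 7 were above it, among them Olig2 and Mbp, and the list mean ran from 6.43 to 7.17 log2, highest in CN1. Of the astrocyte markers 4 of 6 were above it (Gfap, Slc1a2, Slc1a3 and Aldh1l1, but not Aqp4 and Gja1), with means of 5.94 to 6.27 log2. Of the neuron markers 3 of 6 were above it (Rbfox3, Syt1 and Map2, but not Tubb3, Snap25 and Stmn2), with means of 5.21 to 5.69 log2. Of the fibroblast and mural markers 4 of 6 were above it (Col1a1, Col1a2, Col3a1 and Pdgfrb, but not Dcn and Lum), with means of 5.79 to 6.46 log2, and of the endothelial markers 2 of 5 (Cldn5 and Flt1, but not Pecam1, Cdh5 and Tek), with means of 6.16 to 6.51 log2. The part of other cell types in the results was not tested. As whole cultures were measured, fewer cycling cells and less of a transcript per cell cannot be told apart.

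Cells copy their genome once per cycle. In G1 the origin recognition complex, Cdc6 and Cdt1 load the ring of Mcm2 to Mcm7 onto origins. At the G1/S step, cyclin E with Cdk2 and the E2F transcription factors switch on the genes of S phase. Cdc45 and the GINS complex then join the Mcm ring to form the working helicase, and the polymerases follow with their clamp, clamp loader and single-strand binding protein. Microglia of the healthy adult brain divide rarely, but they proliferate in culture and around ischemic injury, and many of these transcripts peak as cells enter and pass S phase.

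Promoters were examined because E2F proteins act through short words close to the start sites of these genes. RefSeq promoters (build GRCm38.p6, 250 bases before to 50 after each start) were listed for 33 of the 38 members; Mcm4, Gins1, Gins2, Pole and Ccne2 had no entry. The words searched, on both strands, were TTTCCCGC and TTTCGCGC, with the variants TTTGCCGC and TTTGGCGC. At least 1 promoter of 14 of the 33 members (42.4%) held such a word, against 4.14% of the 12054 tested genes with a promoter and 2.605% of all 27025 genes with one. The 14 were Orc1, Cdc6, Cdt1, Mcm3, Mcm5, Mcm6, Mcm7, Pola1, Pold1, Rfc3, Lig1, Cdk2, E2f2 and Uhrf1. CCAAT, the word of the NF-Y factor, was held by 21 of the 33 (63.6%) and by 41.3% of the tested genes with a promoter. Shown here are the 250 bases before the start for the 3 word-bearing members with the smallest p in the wild-type ischemia comparison described below, each 5′ to 3′ on the gene's own strand, with E2F words in capitals. They lie at chr5:138171884-138172133 on the minus strand for Mcm7, and on the plus strand at chr17:56304063-56304312 for Uhrf1 and chr11:98907901-98908150 for Cdc6.
Mcm7: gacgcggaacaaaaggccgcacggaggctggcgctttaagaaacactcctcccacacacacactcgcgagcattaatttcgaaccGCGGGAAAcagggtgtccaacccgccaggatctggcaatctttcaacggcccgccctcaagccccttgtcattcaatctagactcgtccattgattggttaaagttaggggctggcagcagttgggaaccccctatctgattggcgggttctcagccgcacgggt
Uhrf1: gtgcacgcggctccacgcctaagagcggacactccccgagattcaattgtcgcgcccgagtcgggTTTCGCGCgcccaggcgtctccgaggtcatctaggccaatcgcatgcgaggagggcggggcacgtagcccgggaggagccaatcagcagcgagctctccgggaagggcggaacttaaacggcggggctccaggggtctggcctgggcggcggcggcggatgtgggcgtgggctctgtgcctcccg
Cdc6: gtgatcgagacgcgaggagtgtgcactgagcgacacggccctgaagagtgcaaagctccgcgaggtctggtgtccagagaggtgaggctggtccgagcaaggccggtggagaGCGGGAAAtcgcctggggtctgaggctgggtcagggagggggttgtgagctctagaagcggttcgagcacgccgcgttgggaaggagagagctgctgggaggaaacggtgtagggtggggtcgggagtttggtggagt

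Mcm7 held a second word, TTTCGCGC, after its start, and 1 of its 3 CCAAT words overlapped an E2F word. Uhrf1 held 2 CCAAT words, neither overlapping, and Cdc6 held none. A match describes the letters only, and a gene with several promoters had more chances to match. In wild-type cells the median change with ischemia was -0.13 log2 over the 14 members with an E2F word and -0.11 log2 over the 19 without.

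Within the wild type, the arrays numbered 2 stood apart from all others in these genes, under control conditions and after ischemia alike. Averaged over the 38 members, the signal was 7.42, 8.17 and 7.35 log2 in CN1, CN2 and CN3, and 7.38, 7.85 and 7.33 log2 in CH1, CH2 and CH3. In the knockout-labelled arrays it was 7.43, 7.47 and 7.24 log2 in control and 7.46, 7.49 and 7.31 log2 after ischemia. CN2 and CH2 were thus the highest arrays of the 12, whereas the other 10 lay within 7.24 to 7.49 log2.

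The excess of CN2 over the mean of CN1 and CN3 had a member median of 0.84 log2 (1.78-fold), with a range from -0.13 log2 for E2f2 to 1.74 log2 for Pole. CH2 exceeded the mean of CH1 and CH3 by a median of 0.52 log2 (1.44-fold), from -0.44 log2 for E2f2 to 1.30 log2 for Mcm6. CN2 was the highest control array and CH2 the highest ischemia array for 31 of 38 members (81.6%), which was so for 22.4% of tested genes. Both lay above all other 10 arrays for 25 members (65.8%), against 6.54% of tested genes.

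For the Mcm ring, all 6 genes from Mcm2 to Mcm7 had CN2 and CH2 above every other array. Mcm6 measured 8.85, 10.10 and 8.65 log2 in control and 8.82, 10.01 and 8.59 log2 after ischemia, against 8.50 to 9.13 log2 in the 6 knockout-labelled arrays. Over the 6 genes the excess ran from 0.84 log2 (Mcm2) to 1.35 log2 (Mcm6) in CN2 and from 0.53 log2 (Mcm3) to 1.30 log2 (Mcm6) in CH2. The 7 members for which CN2 and CH2 were not both the highest of their groups were Orc1, Cdc45, Gins2, Tk1, Cdk2, E2f1 and E2f2.

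**Figure D1:**
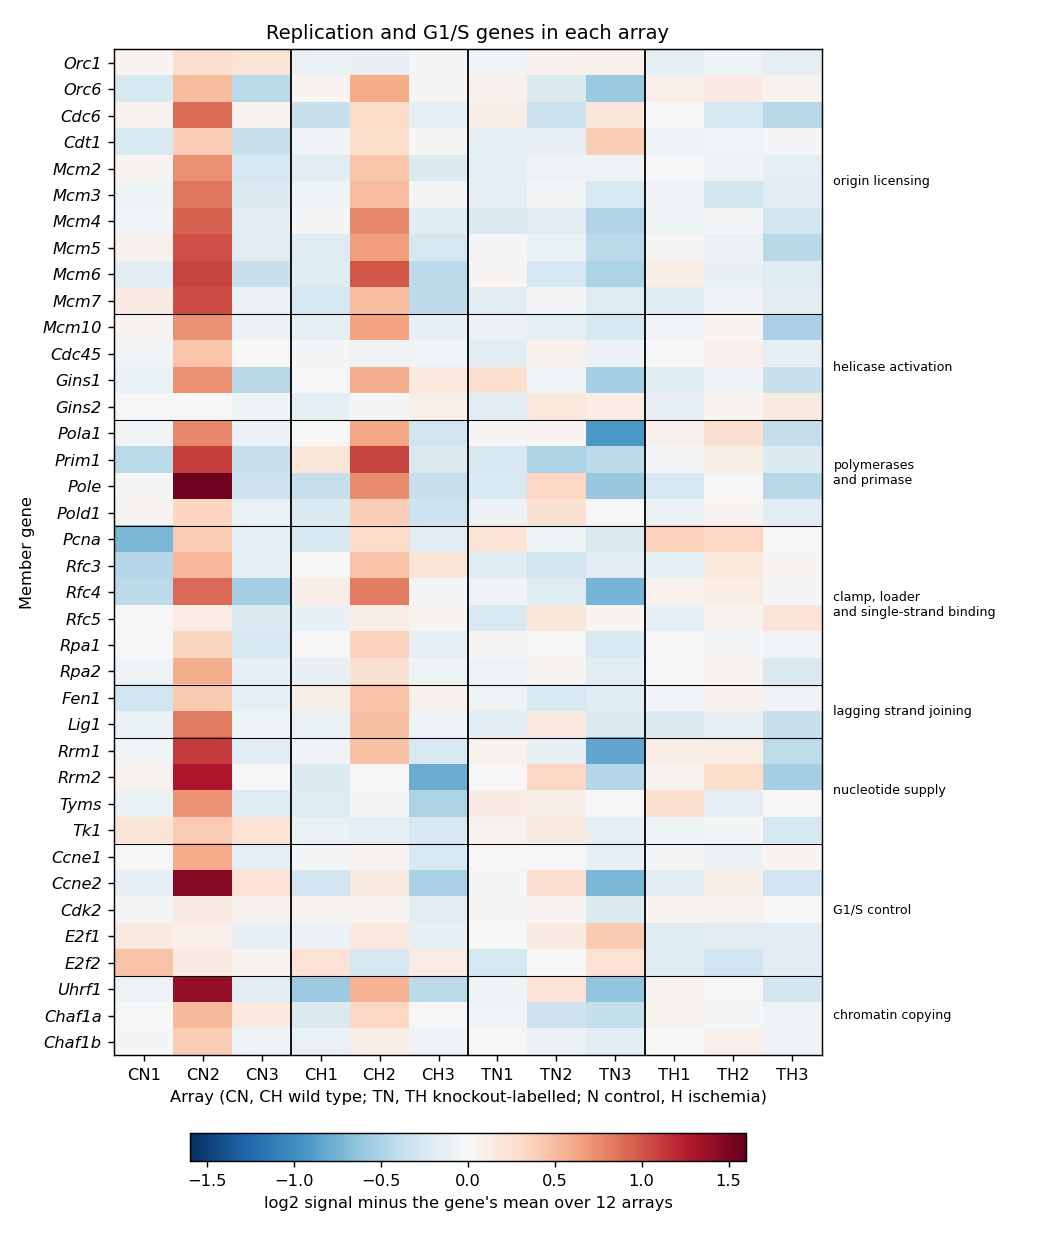
Signal of each member (rows, by role) in each array (columns), as log2 signal minus the gene's mean over 12 arrays; red is above and blue below that mean. CN2 is the highest of all 12 arrays for 29 members, and TN3 the lowest for 13.

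Other genes differed in the same arrays. The mean of 17 mitosis genes was 7.63 log2 in CN2 against 6.56 and 6.37 log2 in CN1 and CN3, but 6.56 log2 in CH2 against 6.21 and 6.22 log2 in CH1 and CH3. The mean of 9 interferon-stimulated genes was 9.34 log2 in CN2 against 6.45 and 7.20 log2, and 10.72 log2 in CH2 against 8.89 and 8.32 log2. The knockout-labelled arrays lay between 5.66 and 6.24 log2 for that list. Microglia markers were highest in CN2 and CH2 (9.98 and 10.02 log2, others 9.20 to 9.73), as were 7 markers of monocytes and border macrophages (6.73 and 6.70 log2, others 6.30 to 6.62), of which Cd163 and Ccr2 were below the limit for testing. For the neuron, oligodendrocyte, astrocyte and fibroblast lists neither CN2 nor CH2 was the highest array of its group, and the endothelial and myocyte means differed by at most 0.35 log2 over all 12 arrays. The part of these differences in the replication signal was not tested.

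**Figure D2:**
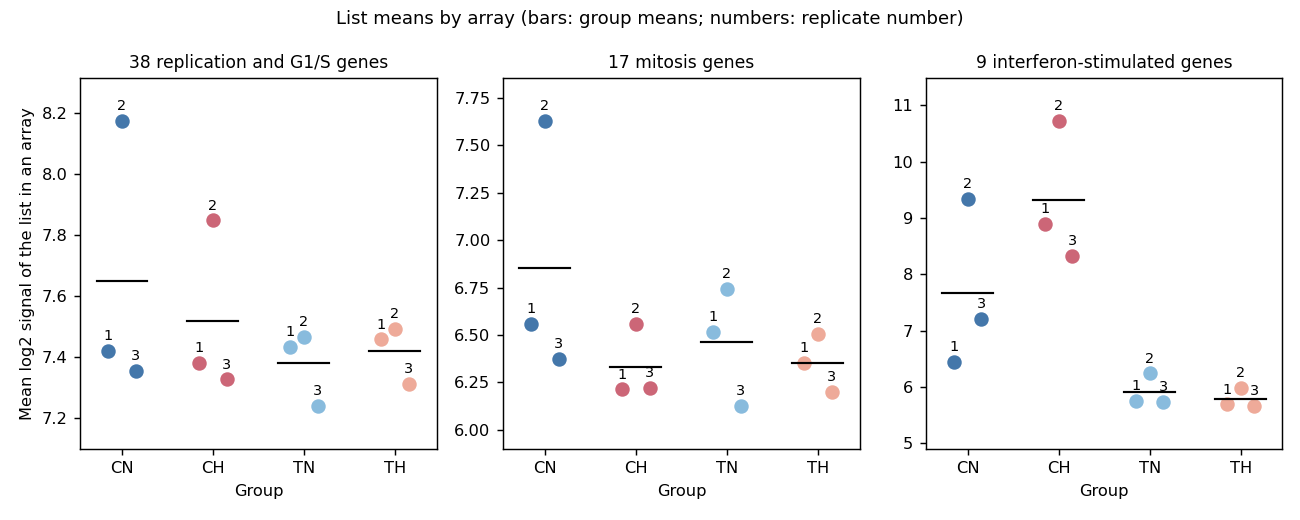
Mean log2 signal in each array of the 38 members, 17 mitosis genes and 9 interferon-stimulated genes, by group; digits are replicate numbers and bars are group means of 3 arrays. CN2 and CH2 stand above the other arrays in the left and right panels, and in the middle panel only CN2 does so clearly.

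The median SD of the members was 0.49 log2 in CN and 0.31 log2 in CH, against 0.18 log2 in TN and 0.13 log2 in TH. For all tested genes it was 0.13, 0.13, 0.16 and 0.12 log2. Without the arrays numbered 2 the members' median SD was 0.10 log2 in both wild-type groups, each with 2 arrays. Because same-numbered arrays of a genotype deviated together, 2 fits are given, both made with limma over all tested genes. The unpaired fit has 1 mean per group, and the paired fit adds the array number within each genotype.

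After ischemia, 4 members fell in wild-type microglia in the paired fit: Rrm2 and Tk1 of nucleotide supply, Mcm7 of the licensing group and Uhrf1 of the chromatin group, by 0.43 to 0.78 on the log2 scale. Over the 38 members, 28 were lower and 10 higher, with a median of -0.11 log2 (30 lower after quantile normalization, 24 after median centring), while 47.6% of tested genes were lower with a median of 0.012 log2. In the paired fit 3.73% of tested genes were called, 457 higher and 113 lower, and the 4 members are read against the 0.740% called lower. The unpaired fit called 0 members and 2 genes (0.0131%). Rrm2 and Tk1 had an unadjusted p under 0.05 in it, as had 14.7% of tested genes. In the paired fit 10 of the 36 tested members had such a p, near the 24.1% of all tested genes that had one. Besides the 4 called, they were Cdc6, Tyms, Pole, Mcm5, Rfc4 and Orc6. Without CN2 and CH2 the paired fit called 0 members and 3.20% of tested genes, Rrm2 being the member nearest to the threshold. In that fit 10 members had an unadjusted p under 0.05, against 20.0% of tested genes.

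Rrm2, the small subunit of ribonucleotide reductase that limits the making of deoxynucleotides, measured 6.20, 7.44 and 6.13 log2 in control and 5.92, 6.16 and 5.35 log2 after ischemia. The knockout-labelled values were 6.15, 6.48 and 5.69 log2 in control and 6.21, 6.43 and 5.61 log2 after ischemia. CN2 stood above all other arrays and CH3 below them, and the wild-type groups overlapped only through CH2 (6.16), which lay between CN3 (6.13) and CN1 (6.20). The wild-type paired change was -0.78 log2 (SE 0.14, adjusted p = 0.00964), a 1.72-fold decrease, and the unpaired adjusted p was 0.326. In the 3 pairs the changes were -0.28, -1.28 and -0.79 log2, and without CN2 and CH2 the change was -0.53 log2 (SE 0.14, adjusted p = 0.0554).

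Tk1, thymidine kinase of the salvage pathway, gave 7.68, 7.89 and 7.69 log2 in control and 7.37, 7.33 and 7.21 log2 after ischemia. Knockout-labelled arrays gave 7.53, 7.62 and 7.34 log2 in control and 7.41, 7.46 and 7.19 log2 after ischemia. All 3 wild-type ischemia arrays lay below all 3 controls, and Tk1 was the only tested member whose wild-type groups did not overlap; 12.3% of tested genes were separated in that direction and 9.38% in the other. The paired change was -0.45 log2 (SE 0.094, adjusted p = 0.0203), with an unpaired adjusted p of 0.255 and -0.39 log2 (SE 0.12, adjusted p = 0.0887) without CN2 and CH2. A second, dimmer Tk1 probe set changed by -0.57 log2 in the wild type and -0.31 log2 in the knockout-labelled cells, against -0.45 and -0.14 log2 here.

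Mcm7, a subunit of the Mcm ring, read 7.81, 8.71 and 7.58 log2 in control and 7.39, 8.17 and 7.26 log2 after ischemia. Its knockout-labelled values were 7.49, 7.64 and 7.47 log2 in control and 7.48, 7.61 and 7.50 log2 after ischemia. Each ischemia array was below its same-numbered control, but the groups overlapped because CH2 exceeded CN1 and CN3. The paired change was -0.43 log2 (SE 0.093, adjusted p = 0.0245), the unpaired adjusted p was 0.450, and without CN2 and CH2 the change was -0.37 log2 (SE 0.11, adjusted p = 0.0995).

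Uhrf1, which guides DNA methylation onto newly copied strands, read 7.01, 8.50 and 6.91 log2 in control and 6.52, 7.65 and 6.67 log2 after ischemia. In knockout-labelled arrays it read 7.03, 7.31 and 6.46 log2 in control and 7.13, 7.10 and 6.80 log2 after ischemia. CN2 and CH2 were the 2 highest of all 12 arrays, so that the groups overlapped, while each ischemia array was below its numbered control. The paired change was -0.53 log2 (SE 0.13, adjusted p = 0.0360), the unpaired adjusted p 0.520, and the change without CN2 and CH2 -0.37 log2 (SE 0.14, adjusted p = 0.176). Calls also rested on other pairs: without CN1 and CH1 only Rrm2 was called among the members (-1.03 log2, adjusted p = 0.00181), and without CN3 and CH3 only Rrm2 and Uhrf1 (adjusted p = 0.0497 and 0.0374).

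**Figure D3:**
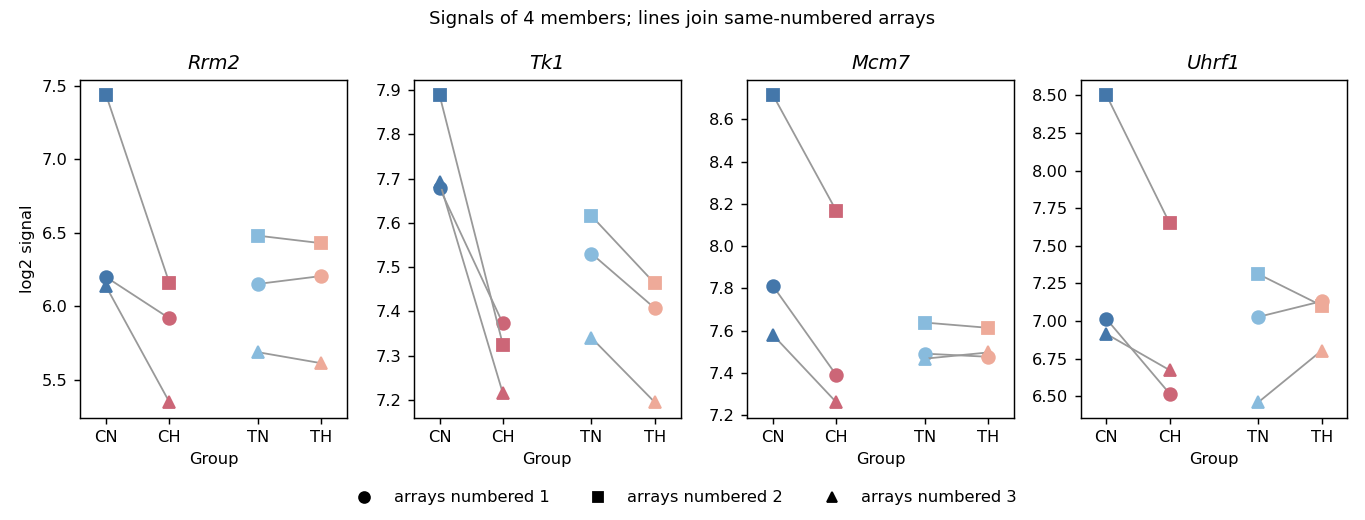
Log2 signal of Rrm2, Tk1, Mcm7 and Uhrf1 in all arrays, by group; symbols mark the replicate number and lines join same-numbered arrays. Every wild-type line runs downward from CN to CH, and the wild-type arrays numbered 2 (squares) start highest; in the knockout-labelled arrays all 3 lines run downward for Tk1 only.

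By role, all 4 nucleotide-supply genes were lower in wild-type ischemia (median -0.42 log2, and -0.30 log2 without CN2 and CH2). The third of them, Tyms, makes thymidylate and measured 6.16, 6.99 and 6.06 log2 in control and 6.06, 6.23 and 5.76 log2 after ischemia; knockout-labelled arrays gave 6.40, 6.35 and 6.27 log2 in control and 6.52, 6.11 and 6.27 log2 after ischemia. CN2 stood above the other 5 wild-type arrays, CH2 exceeded CN1 and CN3, and the paired change was -0.39 log2 (SE 0.12, adjusted p = 0.0909). Rrm1, the large reductase subunit, changed by -0.02, -0.65 and -0.07 log2 in the 3 pairs, so that most of its mean came from pair 2. Without CN2 and CH2 the paired change was -0.20 log2 for Tyms and -0.042 log2 for Rrm1.

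Of the 10 licensing genes, 8 were lower (median -0.10 log2) and Mcm7 was called. After median centring of the arrays 6 were lower (median -0.044 log2), and without CN2 and CH2 7 were lower (median -0.061 log2). Cdc6, a loader of the Mcm ring, measured 6.23, 7.07 and 6.22 log2 in control and 5.82, 6.48 and 6.03 log2 after ischemia. Its knockout-labelled values were 6.28, 5.84 and 6.36 log2 in control and 6.17, 5.90 and 5.74 log2 after ischemia. The wild-type groups overlapped through CH2 alone, and the paired change was -0.40 log2 (SE 0.13, adjusted p = 0.0888). Mcm5 measured 7.63, 8.60 and 7.38 log2 in control and 7.36, 8.23 and 7.29 log2 after ischemia, and in knockout-labelled arrays 7.53, 7.46 and 7.13 log2 in control and 7.58, 7.46 and 7.12 log2 after ischemia. It was lower in all 3 wild-type pairs, CN2 and CH2 being the highest arrays, and the paired change was -0.24 log2 (SE 0.094, adjusted p = 0.145). Orc6, the smallest subunit of the origin recognition complex, measured 7.20, 7.96 and 7.02 log2 in control and 7.48, 8.04 and 7.47 log2 after ischemia. In knockout-labelled arrays it measured 7.52, 7.23 and 6.86 log2 in control and 7.53, 7.58 and 7.50 log2 after ischemia, and it was higher in all 3 pairs of each genotype, with overlapping groups and a wild-type paired change of 0.27 log2 (SE 0.12, adjusted p = 0.184). Orc1, the largest subunit, was dim at 5.20 to 5.61 log2 and, untested, lower in all 3 pairs of both genotypes.

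Among the helicase activators 3 of 4 were lower (median -0.06 log2, and -0.0043 log2 without CN2 and CH2; 2 of 4 after median centring) and 0 were called. Cdc45, part of the working helicase, measured 6.81, 7.30 and 6.85 log2 in control and 6.84, 6.81 and 6.82 log2 after ischemia. Its knockout-labelled values were 6.68, 6.93 and 6.77 log2 in control and 6.85, 6.94 and 6.72 log2 after ischemia. Only CN2 stood out, the other 11 arrays lying within 6.68 to 6.94 log2, and the paired wild-type change was -0.17 log2 (SE 0.11, adjusted p = 0.363), or -0.0047 log2 without CN2 and CH2. Gins2 kept within 7.46 to 7.80 log2 in all 12 arrays. Of the polymerase and primase genes 3 of 4 were lower (median -0.12 log2). Pole, the catalytic subunit of the leading-strand polymerase, measured 6.07, 7.65 and 5.76 log2 in control and 5.73, 6.86 and 5.73 log2 after ischemia. In knockout-labelled arrays it measured 5.86, 6.43 and 5.49 log2 in control and 5.82, 6.11 and 5.66 log2 after ischemia. CN2 and CH2 exceeded all others, the groups overlapped, and the paired change was -0.39 log2 (SE 0.13, adjusted p = 0.107), of which pair 2 gave -0.80 log2 and pair 3 -0.04 log2. Without CN2 and CH2 it was -0.19 log2.

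The clamp, clamp-loader and single-strand binding genes lay the other way, 5 of 6 being higher (median 0.08 log2, and 6 of 6 with 0.15 log2 without CN2 and CH2), with 0 called. After a further quantile normalization of the arrays the split was 3 and 3 and the median -0.0038 log2. Rfc4, a clamp-loader subunit, measured 6.75, 8.07 and 6.62 log2 in control and 7.27, 7.99 and 7.13 log2 after ischemia. Its knockout-labelled values were 7.11, 6.97 and 6.43 log2 in control and 7.22, 7.29 and 7.13 log2 after ischemia. It was higher in wild-type pairs 1 and 3 and lower in pair 2, and the paired change was 0.32 log2 (SE 0.14, adjusted p = 0.175), or 0.52 log2 (SE 0.14, adjusted p = 0.0720) without CN2 and CH2. Pcna, the sliding clamp, measured 10.80, 11.92 and 11.38 log2 in control and 11.26, 11.83 and 11.35 log2 after ischemia, with 11.74, 11.45 and 11.30 log2 in control and 11.89, 11.85 and 11.54 log2 after ischemia in knockout-labelled arrays. CN1 was its lowest array, the wild-type groups overlapped, and the paired change was 0.11 log2 (SE 0.12, adjusted p = 0.554), or 0.22 log2 without CN2 and CH2. Both Pcna probe sets gave nearly the same changes (0.11 and 0.12 log2).

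Of the lagging-strand pair, Fen1, the flap nuclease, measured 7.36, 8.11 and 7.52 log2 in control and 7.78, 8.13 and 7.75 log2 after ischemia and in knockout-labelled arrays 7.61, 7.44 and 7.49 log2 in control and 7.64, 7.76 and 7.60 log2 after ischemia. It was higher in all 3 wild-type pairs although the groups overlapped, and the paired change was 0.22 log2 (SE 0.10, adjusted p = 0.209). Lig1, the DNA ligase that joins Okazaki fragments, is described with the genotypes below.

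All 5 G1/S regulators were lower (median -0.19 log2, and -0.084 log2 without CN2 and CH2; 4 of 5 after median centring of the arrays) and 0 of the 4 tested were called. Ccne1, cyclin E1, measured 7.54, 8.15 and 7.40 log2 in control and 7.52, 7.59 and 7.31 log2 after ischemia, with 7.55, 7.56 and 7.42 log2 in control and 7.53, 7.46 and 7.58 log2 after ischemia in knockout-labelled arrays. CN2 exceeded the other 11 arrays, and the paired change was -0.22 log2 (SE 0.11, adjusted p = 0.241), or -0.058 log2 without CN2 and CH2. Ccne2, cyclin E2, was below the limit for testing in its mean but measured 4.93, 6.52 and 5.29 log2 in control and 4.75, 5.20 and 4.54 log2 after ischemia. Knockout-labelled arrays gave 5.04, 5.30 and 4.33 log2 in control and 4.87, 5.16 and 4.75 log2 after ischemia for it. Its CN2 value was the highest of the 12, and its pair changes were -0.17, -1.32 and -0.75 log2 in the wild type and -0.17, -0.13 and 0.42 log2 in the knockout-labelled cells. All 3 chromatin genes were lower in the wild type (median -0.19 log2), Uhrf1 being the one called.

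**Figure D4:**
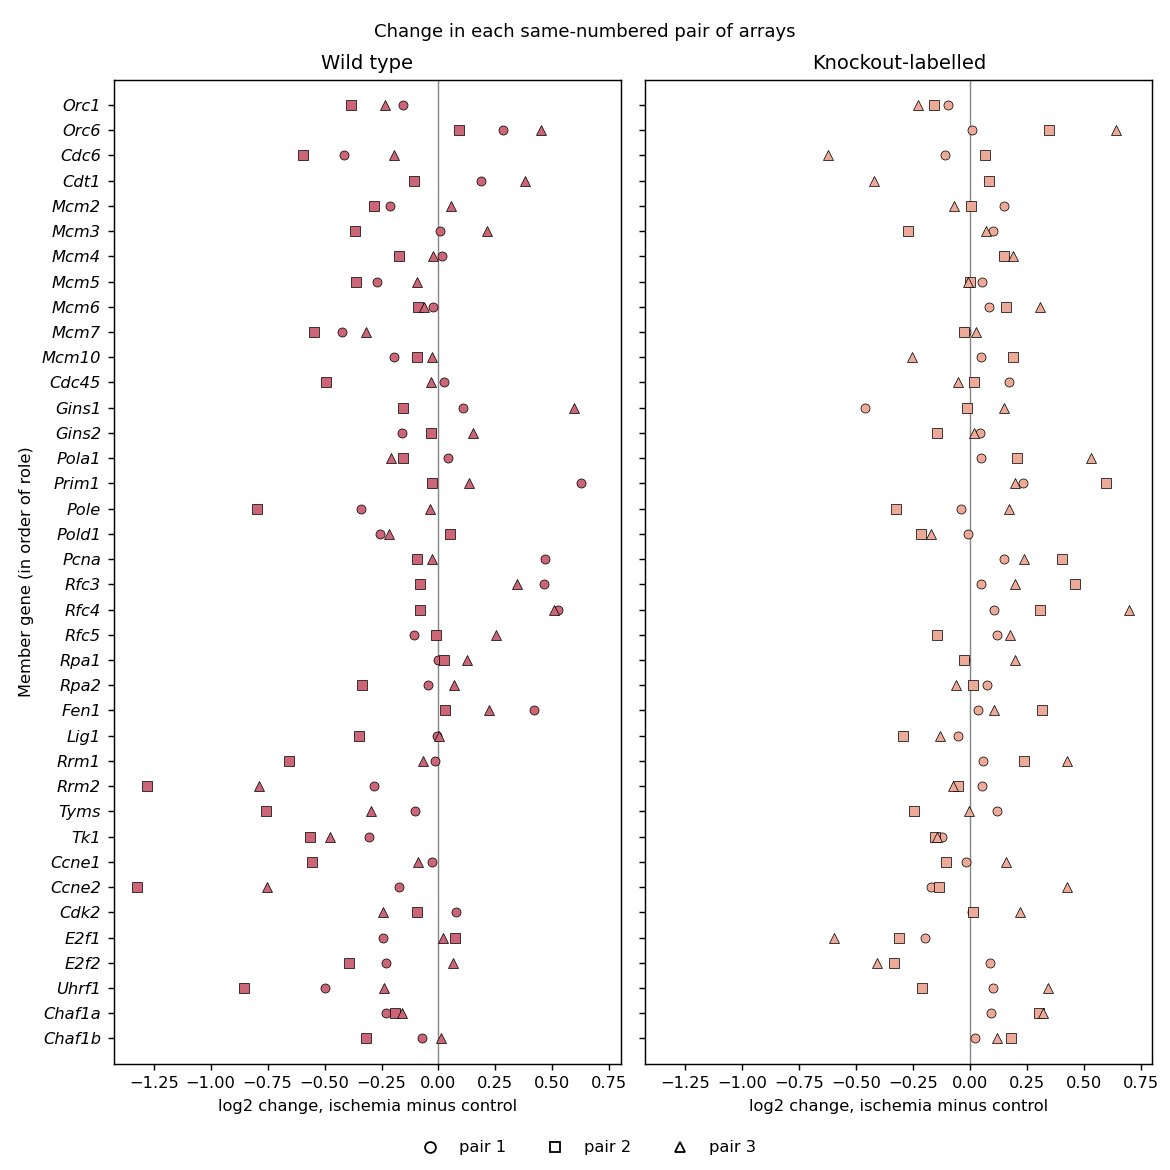
Log2 change from control to ischemia in each same-numbered pair of arrays, for all 38 members in order of role; circles, squares and triangles are pairs 1, 2 and 3. In the wild type 15 members are lower in all 3 pairs (against 22.9% of tested genes) and 2 higher (against 25.8%). In the knockout-labelled cells 5 are lower in all 3 (against 18.7% of tested genes) and 13 higher (against 20.8%).

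Pair by pair, the wild-type change had a member median of -0.06, -0.24 and -0.03 log2, with 25, 33 and 21 of 38 members lower. The second pair, which holds CN2 and CH2, was the most negative. Without it 26 members were lower and the median was -0.05 log2. In all 3 pairs 15 members were lower, against 22.9% of tested genes, and 2 were higher (Orc6 and Fen1), against 25.8% of tested genes.

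In knockout-labelled microglia the replication genes showed no called change with ischemia. With a median change of 0.02 log2, 22 of 38 members lay higher and 16 lower. Of all tested genes 50.2% were lower, with a median of -0.00092 log2. The member median was -0.0095 log2 after quantile normalization. The pair medians were 0.05, 0.0039 and 0.11 log2. The unpaired fit called 0 members and 0% of tested genes. E2f1 had an unadjusted p under 0.05 in it, as had 8.73% of tested genes. The paired fit called 0 members and 0.648% of tested genes. In it 7 of the 36 tested members had an unadjusted p under 0.05, near the 19.2% of all tested genes that had one.

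By role, all 6 clamp, loader and binding genes were higher in knockout-labelled ischemia (median 0.14 log2; 3 of 6 after quantile normalization) and so were all 3 chromatin genes (median 0.11 log2). Of the 4 nucleotide-supply genes 3 were lower (median -0.034 log2), the 10 licensing genes were split 5 and 5 (median 0.0062 log2; 7 lower and a median of -0.039 log2 after quantile normalization), and of the 5 G1/S regulators 3 were higher (median 0.013 log2; 2, with a median of -0.037 log2, after quantile normalization). With all arrays, neither fit called a gene in these role groups.

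E2f1, an activating member of the E2F family, had the smallest paired adjusted p. It measured 8.36, 8.47 and 8.76 log2 in control and 8.16, 8.16 and 8.16 log2 after ischemia, and in the wild type 8.49, 8.43 and 8.20 log2 in control and 8.25, 8.51 and 8.21 log2 after ischemia. The knockout-labelled groups did not overlap, TN3 being the highest of the 12 arrays and the 3 TH arrays lying together. The paired change was -0.37 log2 (SE 0.11, adjusted p = 0.109) in knockout-labelled cells and -0.051 log2 (SE 0.11, adjusted p = 0.795) in the wild type, where it was -0.11 log2 without CN2 and CH2. Orc1 was the other member whose groups were separated downward, and 6.36% of tested genes were so. Prim1, Rfc3 and Rfc4 were separated upward, as were 7.94% of tested genes.

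Rfc4 changed by 0.37 log2 (SE 0.14, adjusted p = 0.168) in the paired fit and Orc6 by 0.33 log2 (SE 0.12, adjusted p = 0.166). For both genes TN3 was the lowest of the 12 arrays, so that their change was largest in pair 3 (0.70 and 0.64 log2). Prim1, the catalytic primase subunit, changed by 0.23, 0.60 and 0.20 log2 in the 3 pairs. Without TN1 and TH1 the paired fit called Orc6 (0.50 log2, adjusted p = 0.0463), the only member called among the fits tried for this comparison.

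Whether ischemia acted differently in the genotypes was tested directly. The interaction is the knockout-labelled change minus the wild-type change. It was called for 0 members in the unpaired fit (0% of tested genes) and for 0 in the paired fit (0.308%). At an unadjusted p under 0.05 there were 0 members in the unpaired fit, against 2.90% of tested genes. In the paired fit 7 of the 36 tested members had such a p, against 8.45% of tested genes. The widest difference among tested members was that of Rrm2, at 0.76 log2 (SE 0.20, adjusted p = 0.240), followed by Uhrf1 at 0.61 log2 (SE 0.18, adjusted p = 0.351). Before adjustment the interval of the Rrm2 difference ran from 0.33 to 1.19 log2.

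Chaf1a, the large subunit of the histone chaperone CAF-1, measured 7.17, 7.70 and 7.34 log2 in control and 6.94, 7.51 and 7.18 log2 after ischemia. In knockout-labelled arrays it measured 7.13, 6.85 and 6.80 log2 in control and 7.23, 7.15 and 7.12 log2 after ischemia. It was lower in all 3 wild-type pairs and higher in all 3 knockout-labelled pairs, and the interaction was 0.43 log2 (SE 0.13, adjusted p = 0.382). Mcm7 had an interaction of 0.43 log2 (SE 0.13, adjusted p = 0.396). Over the members the median interaction was 0.16 log2, and 0.08 log2 without CN2 and CH2, against 0.0080 log2 for all tested genes. The fall of 4 genes in the wild type alone is therefore not shown to differ from the knockout-labelled cells. Of 27 alternative runs of the interaction, 1 called a member. That was Rrm2 in the paired fit without CN1 and CH1 (1.01 log2, adjusted p = 0.0346). In the paired fit without CN2 and CH2 the adjusted p of Rrm2 was 0.435.

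The genotypes were compared in each condition with the unpaired fit. In control cells 33 of 38 members were lower in the knockout-labelled arrays, with a median of -0.24 log2, against 49.2% of tested genes (median 0.0030 log2). Of the members 0 were called (0.0589% of tested genes). Chaf1a and Tk1 had an unadjusted p under 0.05, as had 7.14% of tested genes. Without CN2 the split was 17 lower and 21 higher, with a median of 0.0088 log2. Of the 10 licensing genes 9 were lower with all arrays (median -0.34 log2) and 5 without CN2 (median -0.030 log2), and of the 4 polymerase and primase genes 4 (median -0.50 log2) and 1 (median 0.0088 log2). Chaf1a had the smallest adjusted p (-0.48 log2 (SE 0.16, adjusted p = 0.623)), and Tk1 followed (-0.26 log2 (SE 0.11, adjusted p = 0.687)). Mcm4, whose arrays read 7.92, 8.90 and 7.79 log2 in control and 7.93, 8.73 and 7.76 log2 after ischemia and in knockout-labelled cells 7.73, 7.77 and 7.48 log2 in control and 7.88, 7.92 and 7.67 log2 after ischemia, differed by -0.54 log2 (SE 0.28, adjusted p = 0.705), and by -0.19 log2 (SE 0.13, adjusted p = 0.675) without CN2 and CH2. For these 3 genes all TN arrays lay below all CN arrays, a separation found in 4.52% of tested genes downward and 5.37% upward.

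After ischemia 26 members were lower in the knockout-labelled arrays (median -0.10 log2), against 47.3% of tested genes (median 0.010 log2). Of the members 0 were called (0.714% of tested genes). At an unadjusted p under 0.05 there were 0 members, against 8.35% of tested genes. Without CH2 and CN2 26 members were higher and the median was 0.06 log2. Gins1, a subunit of the GINS complex, measured 5.47, 6.31 and 5.14 log2 in control and 5.57, 6.16 and 5.74 log2 after ischemia and in knockout-labelled cells 5.84, 5.54 and 5.05 log2 in control and 5.38, 5.52 and 5.20 log2 after ischemia; it differed by -0.45 log2 (SE 0.27, adjusted p = 0.729), and by -0.29 log2 (SE 0.20, adjusted p = 0.768) without CN2 and CH2. Lig1 measured 7.64, 8.58 and 7.68 log2 in control and 7.64, 8.23 and 7.68 log2 after ischemia, with 7.57, 7.90 and 7.52 log2 in control and 7.52, 7.61 and 7.39 log2 after ischemia in knockout-labelled cells, and differed by -0.34 log2 (SE 0.23, adjusted p = 0.774), or by -0.15 log2 (SE 0.13, adjusted p = 0.842) without CN2 and CH2. E2f2, an activating E2F, measured 7.68, 7.34 and 7.28 log2 in control and 7.45, 6.95 and 7.34 log2 after ischemia and in knockout-labelled cells 6.94, 7.23 and 7.44 log2 in control and 7.03, 6.89 and 7.04 log2 after ischemia, a difference of -0.26 log2 (SE 0.16, adjusted p = 0.733), or of -0.41 log2 (SE 0.16, adjusted p = 0.360) without CN2 and CH2. In Gins1, Lig1 and E2f1 all TH arrays lay below all CH arrays, as in 8.07% of tested genes, whereas 8.38% were separated upward.

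**Figure D5:**
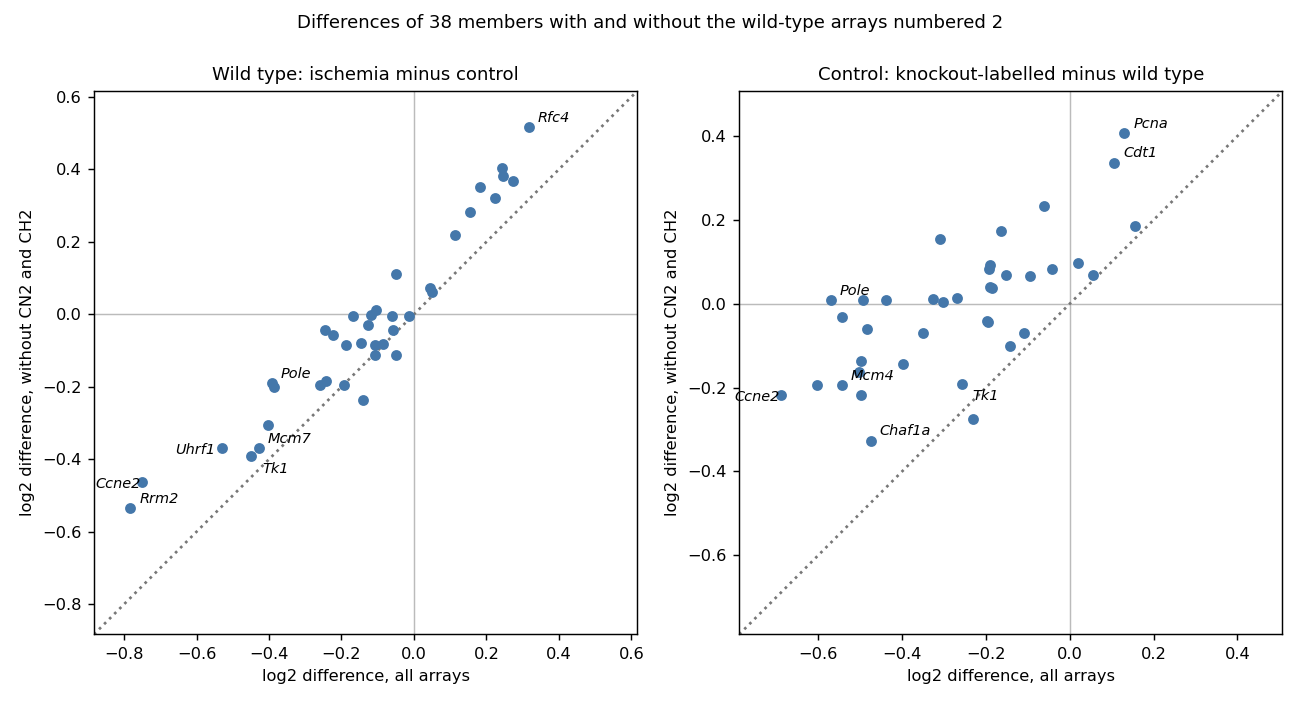
Differences of the 38 members with all arrays (horizontal) and without CN2 and CH2 (vertical), in log2, for wild-type ischemia minus control (left) and knockout-labelled minus wild-type control cells (right); the dotted line marks equal values. On the left 28 members lie below 0 with all arrays and 26 without; on the right 33 and 17.

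Other genes of the same pathways, from lists chosen with earlier results known, were set beside the members. The unpaired fit called 0 of the 99 tested in either ischemia comparison. At an unadjusted p under 0.05 were 13 in the wild type and 3 in knockout-labelled cells, against 14.7% and 8.73% of all tested genes. The values that follow are from the paired fit. In that fit 24.1% of all tested genes in the wild type and 19.2% in knockout-labelled cells had an unadjusted p under 0.05. The counts at such a p in these lists are to be read beside those shares. Of 35 further replication genes, 26 were higher in wild-type ischemia (median 0.13 log2) and 28 in knockout-labelled ischemia (median 0.14 log2). Of all 15273 tested genes 8003 and 7612 were higher in these comparisons. Among the 34 tested, Orc5, another origin recognition subunit, rose in the wild type (0.38 log2, SE 0.09, adjusted p = 0.0360, and 0.0929 without CN2 and CH2). That 1 call of 34 is near the share called over all tested genes. In knockout-labelled cells 0 of the 34 were called (8 at an unadjusted p under 0.05). Orc5 read 7.37, 7.14 and 7.33 log2 in TN and 7.51, 7.44 and 7.46 log2 in TH, higher in all 3 pairs there too. Of 13 further nucleotide-supply genes, Dck, a salvage kinase for deoxynucleosides, rose by 0.56 log2 (adjusted p = 0.0164) and Samhd1, which breaks down deoxynucleotides, by 0.47 log2 (adjusted p = 0.0161) in the wild type. Without CN2 and CH2 the adjusted p was 0.0457 for Dck and 0.0554 for Samhd1, and Paics was called higher as well. In knockout-labelled cells Samhd1 read 10.60, 10.60 and 10.05 log2 in TN and 10.77, 10.88 and 10.46 log2 in TH. It was thus higher in all 3 pairs there too, whereas Dck was higher there in pair 2 only. Dck read 8.09, 9.78 and 8.37 log2 in CN and 8.98, 10.28 and 8.67 log2 in CH, so that it was high in the arrays numbered 2 as well. In knockout-labelled cells Ctps, which makes CTP, rose by 0.63 log2 (adjusted p = 0.0138).

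Of 26 further G1/S regulators Myc rose in the wild type (0.44 log2, adjusted p = 0.0408, and 0.0660 without CN2 and CH2). That 1 call of 26 is near the 3.73% called over all tested genes. In knockout-labelled cells 0 of the 26 were called (6 at an unadjusted p under 0.05). Myc read 8.80, 8.85 and 8.77 log2 in TN and 9.23, 9.14 and 9.14 log2 in TH, higher in all 3 pairs there too. Of 11 further S-phase chromatin genes 0 of the 10 tested were called in the wild type (3 at an unadjusted p under 0.05), and Hells, a chromatin remodeler needed for DNA methylation, rose in knockout-labelled cells (0.58 log2, adjusted p = 0.0278). Hells was the only gene of these lists called for the interaction (0.85 log2, adjusted p = 0.0309, and 0.128 without CN2 and CH2). TN3 held its lowest value, 4.97 log2, against 5.64 to 6.39 log2 in the other knockout-labelled arrays.

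The 17 mitosis genes were all lower in wild-type ischemia, with a median of -0.45 log2 (15 of 17 after median centring; -0.26 log2 without CN2 and CH2, where 12 were lower). Of the 16 tested, 5 fell, where 0.740% of all tested genes were called lower. Mki67, the proliferation antigen, fell by 1.25 on the log2 scale (adjusted p = 0.000627), and Ccna2, the gene of cyclin A2, by 1.14 (adjusted p = 0.0130). Top2a, a topoisomerase, fell by 0.98 (adjusted p = 0.0186), the spindle motor gene Kif11 fell by 0.86 (adjusted p = 0.0343) and Birc5 fell by 0.45 (adjusted p = 0.0380). Without CN2 and CH2, Mki67 and Ccna2 fell still (adjusted p = 0.00248 and 0.0490). In knockout-labelled cells 12 of 17 were lower (median -0.12 log2) and 0 were called, with 1 at an unadjusted p under 0.05. Mki67 read 7.04, 7.51 and 6.26 log2 in TN and 6.42, 6.92 and 5.81 log2 in TH. It was lower in all 3 of these pairs, as was Birc5. Ccna2, Top2a and Kif11 were lower in pairs 1 and 2 and higher in pair 3. The interaction was called for 0 of the 16, with 4 at an unadjusted p under 0.05, against 8.45% of all tested genes.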

How the data were processed

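Each of the 12 one-colour arrays held the RNA of 1 microglia sample. The authors deposited log2 signals for 35557 probe sets. Per the submitters' processing notes they were computed in Affymetrix Expression Console 1.1, and RMA is the method named. RMA includes a step that draws the distributions of arrays together, so a change in total RNA cannot be read from its values; the deposited array medians still ran from 6.30 to 6.40 log2. The number of arrays and the spread among them limit the precision. Groups and numbers came from the titles. Symbols came from the platform annotation. Of 21789 probe sets with 1 symbol, 21698 had a gene identifier found in a current gene table, whose symbol was then used. The 1621 probe sets with several symbols were left out.

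Genes with a mean above the 30th percentile of probe sets were fitted with limma 3.58.1 in R 4.3.3 (lmFit, eBayes), with 1 mean per group over the 12 arrays. Genes were called at an adjusted p (Benjamini-Hochberg over 15273 genes) under 0.05. Changes are differences of log2 signal, and "fold" is 2 to that power.

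Deviations of same-numbered arrays from their group means correlated over genes at 0.48, 0.73 and 0.48 in the wild type and 0.36, 0.32 and 0.49 in the knockout-labelled arrays, all above 0.1. Some differently numbered arrays passed 0.1 as well: CN1 with CH3 (0.40), CN3 with CH1 (0.12) and TN1 with TH2 (0.22). That limit alone thus does not single out same-numbered arrays, though each array correlated most with the one of its own number. Numbers were taken to pair arrays within a genotype, which rests on the data and not on the labels. Between genotypes the correlations of same-numbered arrays ran from -0.33 to 0.33, and no pairing was used.

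The members and lists were chosen with earlier results of these data known. Values in every array are given for members called in any fit, those with the smallest p in each comparison, the leading member of each role, Pcna and Ccne2; other members are summarised. Alternatives covered the block, the filter, normalization, probe-set summary and left-out arrays.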

Additional observations from a re-analysis of the deposited data

Results flagged for a closer look

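In 3 members every wild-type pair of arrays was lower after ischemia while every knockout-labelled pair was higher. The knockout-labelled change exceeded the wild-type change by 0.49 log2 for Rrm1, by 0.43 log2 for Chaf1a and by 0.24 log2 for Mcm6. This difference was tested as the interaction in the paired limma fit, where it was not called (adjusted p = 0.493 for Rrm1, 0.382 for Chaf1a and 0.641 for Mcm6). Opposite directions in all pairs were found in 443 of the 15273 tested genes (2.90%). The Mcm6 pair changes in the wild type were small, at -0.02, -0.09 and -0.06 log2, and those of Rrm1 were -0.02, -0.65 and -0.07 log2.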

How the results depend on the processing

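Of 96 alternatives over the 5 comparisons, 91 called 0 members and 5 called more. The array number as a replicate block within genotype called 4 members in wild-type ischemia, or 1, 0 and 2 without pair 1, 2 or 3. In knockout-labelled ischemia it called 1 without TN1 and TH1, and for the interaction 1 without CN1 and CH1. Rrm2, Tk1, Mcm7 and Uhrf1 kept a negative sign in every alternative run, but unblocked without CN2 Uhrf1 was at -0.018 log2 and Mcm7 at -0.089 log2.

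Genes called in wild-type ischemia numbered 2. They numbered 570 with the block (143, 488 and 248 without pair 1, 2 or 3), 80 without CN2 and CH2, 1 with only the compared groups or quantile normalization, and 1 to 79 with 1 array left out. In knockout-labelled ischemia they numbered 0, 1 with a 3-level block, 99 with the block and 753, 4 or 2 when it left out pair 1, 2 or 3. The knockout-labelled minus wild-type comparison in control cells called 9 genes, 0 with only the compared groups, 31 with a 3-level block, 14 with a random block, 100 without CN2 and CH2, and 0 to 23 with 1 array left out. After ischemia it called 109, 236 with a 3-level block, 295 without CN2 and CH2, and 25 to 95 with 1 array left out. The interaction was called for 0 genes, 47 with the block, 26, 30 and 49 when it left out wild-type pair 1, 2 or 3, 25, 20 and 27 when it left out knockout-labelled pair 1, 2 or 3, 1 without CN2 and CH2, and 0 to 1 with 1 array left out.

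With 1 array left out the member median ran from -0.26 to 0.12 log2 in wild-type ischemia (0.12 without CN2), from -0.035 to 0.0995 log2 in knockout-labelled ischemia (-0.035 without TN3) and from -0.10 to 0.31 log2 for the interaction. The causes were not tested.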
